A study of Mus musculus with 6 samples.

Results

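The 6 sarcomeric myosin heavy chain genes of mouse skeletal muscle, Myh4, Myh1, Myh2, Myh7, Myh3 and Myh8, were followed through single-nucleus RNA-seq of the tibial periosteum before and after fracture. They were taken by symbol, as 6 of the 30406 genes that all 6 count matrices list, and were read in 2 kinds of nuclei: 1214 myofibre nuclei, in which the muscle genes Ttn, Neb, Ckm, Acta1, Mybpc1 and Ryr1 together held 2% or more of the unique molecular identifiers (UMIs), and the 6859 other nuclei, of 8073 that passed the quality limits. All libraries came from wild-type C57BL6 mice (C57BL/6ScNj in the study's methods) aged 12 weeks, males and females mixed. The 2 uninjured libraries each pooled the scraped periosteum of tibias from 4 mice, and the 2 libraries of day 3 and the single libraries of days 5 and 7 after an open, non-stabilized tibial fracture each pooled periosteum and hematoma from 4 to 9 mice. Muscle was dissected away before scraping, and the study left muscle nuclei out of its own account, so the myofibre nuclei here are those of a tissue that the preparation was meant to leave behind. The values describe pools: p-values measure the spread between libraries and not between mice, days 5 and 7 have no replicate, and with 2 libraries against 2 an exact permutation test cannot give a two-sided p under 0.333.

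Myosin heavy chain is the motor protein of the thick filament, and the isoform that a muscle fibre makes sets its contraction speed and names its fibre type. Myh4 encodes the fastest, type IIB chain, Myh1 the type IIX chain, Myh2 the type IIA chain and Myh7 the slow type I chain, which is also the beta chain of the heart. Myh3 encodes the embryonic and Myh8 the perinatal chain, both of which are made during development and again for a time in regenerating fibres.

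In the GENCODE vM21 annotation of GRCm38, 5 of the 6 genes lay head to tail on the forward strand of chromosome 11, in the order Myh3 (chr11:67078300-67102291), Myh2 (chr11:67171027-67197517), Myh1 (chr11:67200052-67224575), Myh4 (chr11:67238029-67260446) and Myh8 (chr11:67277124-67308634), within 230.3 kb. Myh7 (chr14:54970684-54994626) lay alone on the reverse strand of chromosome 14. Promoter sequences of RefSeq (GRCm38.p6, the 250 bases before each start) were found for 6 of the 6 genes. The 4 from the 3′ part of the cluster are shown because they hold letters in common: Myh2 (chr11:67170777-67171026), Myh1 (chr11:67199852-67200101), Myh4 (chr11:67237562-67237811) and Myh8 (chr11:67276874-67277123), all forward strand. Capitals mark the runs of at least 9 bases that the promoters of the adult fast genes Myh2, Myh1 and Myh4 all share, wherever they stand.
Myh2: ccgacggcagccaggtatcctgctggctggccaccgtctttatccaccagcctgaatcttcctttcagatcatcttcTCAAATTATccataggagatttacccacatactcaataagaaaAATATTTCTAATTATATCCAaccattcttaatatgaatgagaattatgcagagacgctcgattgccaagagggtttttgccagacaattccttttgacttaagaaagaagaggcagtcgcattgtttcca
Myh1: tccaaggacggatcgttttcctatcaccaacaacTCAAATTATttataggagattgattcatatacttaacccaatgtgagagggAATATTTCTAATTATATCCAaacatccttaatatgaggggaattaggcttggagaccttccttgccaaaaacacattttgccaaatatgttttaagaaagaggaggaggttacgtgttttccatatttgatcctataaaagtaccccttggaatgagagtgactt
Myh4: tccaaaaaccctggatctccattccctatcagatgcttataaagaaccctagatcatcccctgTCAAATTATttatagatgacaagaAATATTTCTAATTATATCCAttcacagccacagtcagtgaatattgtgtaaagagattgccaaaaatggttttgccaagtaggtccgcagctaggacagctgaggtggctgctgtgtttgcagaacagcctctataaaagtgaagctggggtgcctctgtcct
Myh8: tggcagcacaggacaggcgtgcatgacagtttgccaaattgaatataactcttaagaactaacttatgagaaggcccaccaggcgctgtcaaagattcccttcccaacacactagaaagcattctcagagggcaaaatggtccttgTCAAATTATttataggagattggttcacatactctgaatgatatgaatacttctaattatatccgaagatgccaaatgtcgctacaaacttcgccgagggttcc
The run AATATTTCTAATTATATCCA stood in the promoters of Myh2, Myh1 and Myh4, and in 3 of 32851 promoters in all. The run TCAAATTAT stood in those of Myh2, Myh1, Myh4 and Myh8 and in 57 of 32851 (0.174%). The promoter of Myh8 also held TTCTAATTATATCC, the inner part of the first run, which stood in 4 of 32851 promoters. These runs were read out of these promoters themselves, searched on both strands, so their rarity elsewhere is a description. The letters TATAAA, searched on both strands, were present in the promoters of Myh4, Myh1 and Myh3 as printed and in that of Myh8 on the other strand, as in 12.4% of all promoters on either strand.

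The genes resemble each other in transcript sequence too, which limits how well reads could be told apart. Of the 91-base windows along the longest transcript, the length of the sequenced read, 11.6% for Myh2, 11.4% for Myh1, 6.90% for Myh8, 5.25% for Myh4, 0.0673% for Myh3 and 0% for Myh7 were found exactly in another of the 6 genes. In the last 500 bases, near which 3′ libraries start, only 31 windows were shared, all of them between Myh1 and Myh2. Counts also took in intronic reads, and whether strand was used was not stated in the sources. Reads of Myh1 and its antisense partner Myhas, of Myh2 and 9430073C21Rik, and of Myh7 and Mhrt, Gm29015 or Gm31251, therefore cannot be told apart where the genes overlap.

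The 6 matrices held 655 to 4712 barcodes and 1499281 to 29796296 UMIs each, and 644 to 2423 nuclei per library passed the limits. Myofibre nuclei had a median depth of 1834 and 6587 UMIs before fracture, and then of 3109 and 6401 (day 3), 2882 (day 5) and 1665 UMIs (day 7). Libraries of 1 group thus differed in depth as much as libraries of different groups, and replicate 1 of the uninjured group was also counted with an earlier Cell Ranger version (6.0.0) than replicate 2 and both day 3 libraries (7.1.0). The day 5 and day 7 libraries were counted with 6.0.0 as well. The gene lists of the matrices also differed, with 32285 and 31055 genes in the 2 day 3 libraries. Among 13551 barcodes, 13533 were distinct, so libraries shared 18 barcodes by sequence. Scrublet marked 0.155% to 1.61% of the nuclei of a library as doublets, which were kept.

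The myofibre label was checked against other cell types. Summed over the lists of markers, immune genes were at 29.6 to 198 CPM, or counts per 1000000 UMIs, in myofibre nuclei and at 293 to 4010.5 CPM in the other nuclei, and stromal and skeletal genes were at 129.7 to 926 against 747 to 8679 CPM. Endothelial genes were at 19.0 to 105 CPM in myofibre nuclei against 293 to 3085 CPM. Mural and adipocyte genes were also lower in the myofibre nuclei of every library. Schwann genes were at 51.9 and 20.1 against 579 and 511 CPM in the uninjured libraries, and were lower in myofibre nuclei of day 3 replicate 2. They hardly separated the nuclei elsewhere, at 49.6 against 40.9 CPM (day 3 replicate 1), 31.7 against 36.4 (day 5) and 34.0 against 34.3 (day 7). Myofibre nuclei made up 24.2% (156 of 644) and 21.1% (249 of 1182) of the uninjured nuclei, 31.2% (235 of 753) and 13.9% (239 of 1720) on day 3, 4.87% (118 of 2423) on day 5 and 16.1% (217 of 1351) on day 7. The 2% limit cut through a continuum on day 3, where 118 and 102 myofibre nuclei lay between 2% and 3% and 122 and 78 other nuclei between 1% and 2%. In the uninjured libraries those numbers were 7 and 7, and 5 and 6.

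The question was how much myosin heavy chain RNA the muscle nuclei held at each time, and of which kind. Of 23441 UMIs of the 6 genes in the nuclei kept, 21353 (91.1%) fell in the myofibre nuclei. Their summed level there was 4086 and 6046 CPM in the uninjured libraries, 674 and 1891 CPM on day 3, 2665 CPM on day 5 and 2526 CPM on day 7. Every library after fracture was below both uninjured libraries. The means were 5066 ± 1386 CPM (SD, n = 2) before and 1282 ± 860.4 CPM (SD, n = 2) on day 3, and the groups did not overlap. Fewer nuclei of a fibre type and less RNA per nucleus cannot be told apart in such sums, so nuclei were also counted one by one.

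Nearly every uninjured myofibre nucleus held a myosin heavy chain UMI, and after fracture a large share held none. The share without any was 3.21% and 1.21% in the uninjured libraries, 58.7% and 31.8% on day 3, 26.3% on day 5 and 25.8% on day 7. Thinning every nucleus to 500 UMIs, which left out none, gave 17.9%, 8.03%, 75.3%, 55.2%, 50.8% and 47.9% in the same order. The exact binomial 95% intervals of the thinned shares were 12.3% to 24.9% and 4.98% to 12.1% for the uninjured libraries, and the lowest bound after fracture was 41.1%, so they did not overlap. These intervals, like all others given here for counts, cover counting error only. For comparison, the share of other nuclei that held such a UMI at 500 UMIs was 15.6% and 13.6% in the uninjured libraries, 2.32% and 5.81% on day 3, 1.21% on day 5 and 4.23% on day 7. In every library the myofibre nuclei stood above that level.

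**Figure D1:**
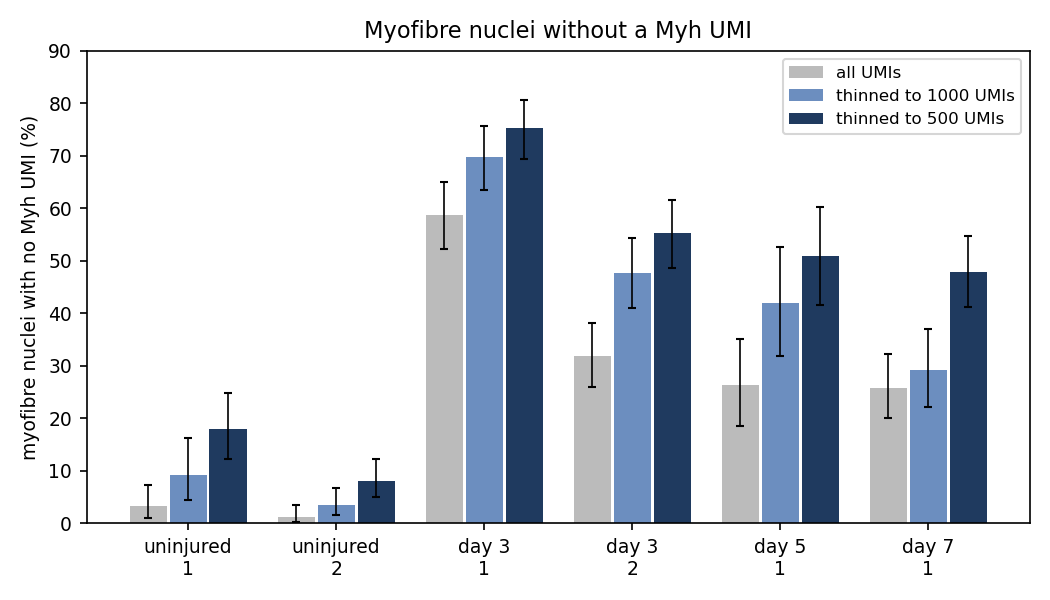
Share of myofibre nuclei without a UMI of the 6 genes (vertical axis, percent) in each library (horizontal axis), from all UMIs and after thinning each nucleus to 1000 or 500 UMIs. Bars are the shares and error bars exact binomial 95% intervals. At 500 UMIs the uninjured libraries stood at 17.9% and 8.03% and the 4 libraries after fracture between 47.9% and 75.3%.

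The day 3 nuclei without myosin heavy chain were compared with those that held a UMI of it, on genes that the limit did not use. In replicates 1 and 2, the 138 and 76 such nuclei had median depths of 2987 and 6010 UMIs against 3253 and 6812 in the day 3 myofibre nuclei with a UMI of the 6 genes. Immune markers were at 58.3 and 202 CPM in them, against 95.2 and 196 CPM in the nuclei with one. Stromal and skeletal markers were at 115 and 557 CPM against 165 and 611 CPM. The list of fast sarcomere genes was at 1565 and 4103 CPM against 3160.0 and 6407 CPM, so it was lower in the nuclei without. Lower there too were the slow sarcomere list, at 120 and 265 against 408 and 462 CPM, and the list of forming fibres, at 778 and 490 against 1957 and 1422 CPM. The list of genes found at nerve and tendon junctions went the other way, at 1392 and 1401 against 847 and 943 CPM.

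The muscle genes that defined the myofibre nuclei were themselves lower after fracture, at 58782 and 64731 CPM in the uninjured libraries, 32335 and 34213 CPM on day 3, 29346 CPM on day 5 and 41660 CPM on day 7. Per 100 UMIs of those 6 genes, myofibre nuclei held 6.95 and 9.34 myosin heavy chain UMIs in the uninjured libraries and 2.08 and 5.53 on day 3, but 9.08 on day 5 and 6.06 on day 7. The day 3 values were below both uninjured values, while day 5 lay between them. The share of nuclei without any of the 6 genes was also read within bands of muscle gene content, with no thinning. Among nuclei in which the muscle genes held 5% or more of UMIs it was 2.15% (of 93) and 0% (of 178, which allows up to 1.69%) in the uninjured libraries, 50% (of 24) and 23.5% (of 17) on day 3, 14.3% (of 7) on day 5 and 14.5% (of 69) on day 7. The order of uninjured and day 3 libraries was the same in the 3 to 5% band, at 5.36% and 3.13% against 57.0% and 28.3%.

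The 3 adult fast genes made up nearly all myosin heavy chain RNA of uninjured myofibre nuclei and were lower in each day 3 library than in either uninjured one. Myh4, the IIB gene, was at 1502 and 2363 CPM in the uninjured libraries, 223 and 627 CPM on day 3, 539 CPM on day 5 and 829.9 CPM on day 7. Myh1, the IIX gene, was at 1550.3 and 3183 CPM, then 254 and 775 CPM, 1318 CPM and 1012 CPM. Myh2, the IIA gene, was at 1028 and 474 CPM, then 23.2 and 270.1 CPM, 552 CPM and 463 CPM. For each of the 3 genes replicate 1 was the lowest library of day 3, and the day 5 and day 7 libraries lay above both day 3 libraries except for Myh4 on day 5, which lay between them.

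The sum per library was tested on day 3 with edgeR's quasi-likelihood test over all genes, with Benjamini-Hochberg adjustment. The log2 fold change of Myh4 was -2.31 (SE 0.46), with an adjusted p of 0.0665. That of Myh1 was -2.33 (SE 0.53), with an adjusted p of 0.0840, and that of Myh2 -2.55 (SE 0.88), with an adjusted p of 0.217. None of the 3 passed the threshold of 0.05, although all 3 had groups that did not overlap. In this comparison 109 of 9091 genes tested passed (1.2%, 70 higher and 39 lower), and 44.2% of all genes had groups that did not overlap (25.2% higher and 19% lower on day 3). Over the alternative settings the adjusted p of Myh4 ran from 4.57e-07 to 0.596, that of Myh1 from 4.57e-07 to 0.597 and that of Myh2 from 1.01e-08 to 0.946. The log2 fold change of Myh2 ran from -4.81 (without day 3 replicate 2) to -0.35 (nuclei at 5% or more) and that of Myh1 from -2.999 to -1.28, and all were negative. With DESeq2 the adjusted p was 5.22e-05 for Myh4 and 0.000213 for Myh1. The calls thus depended on the test and on single libraries: Myh4 and Myh1 passed without uninjured replicate 1 and without day 3 replicate 2.

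**Figure D2:**
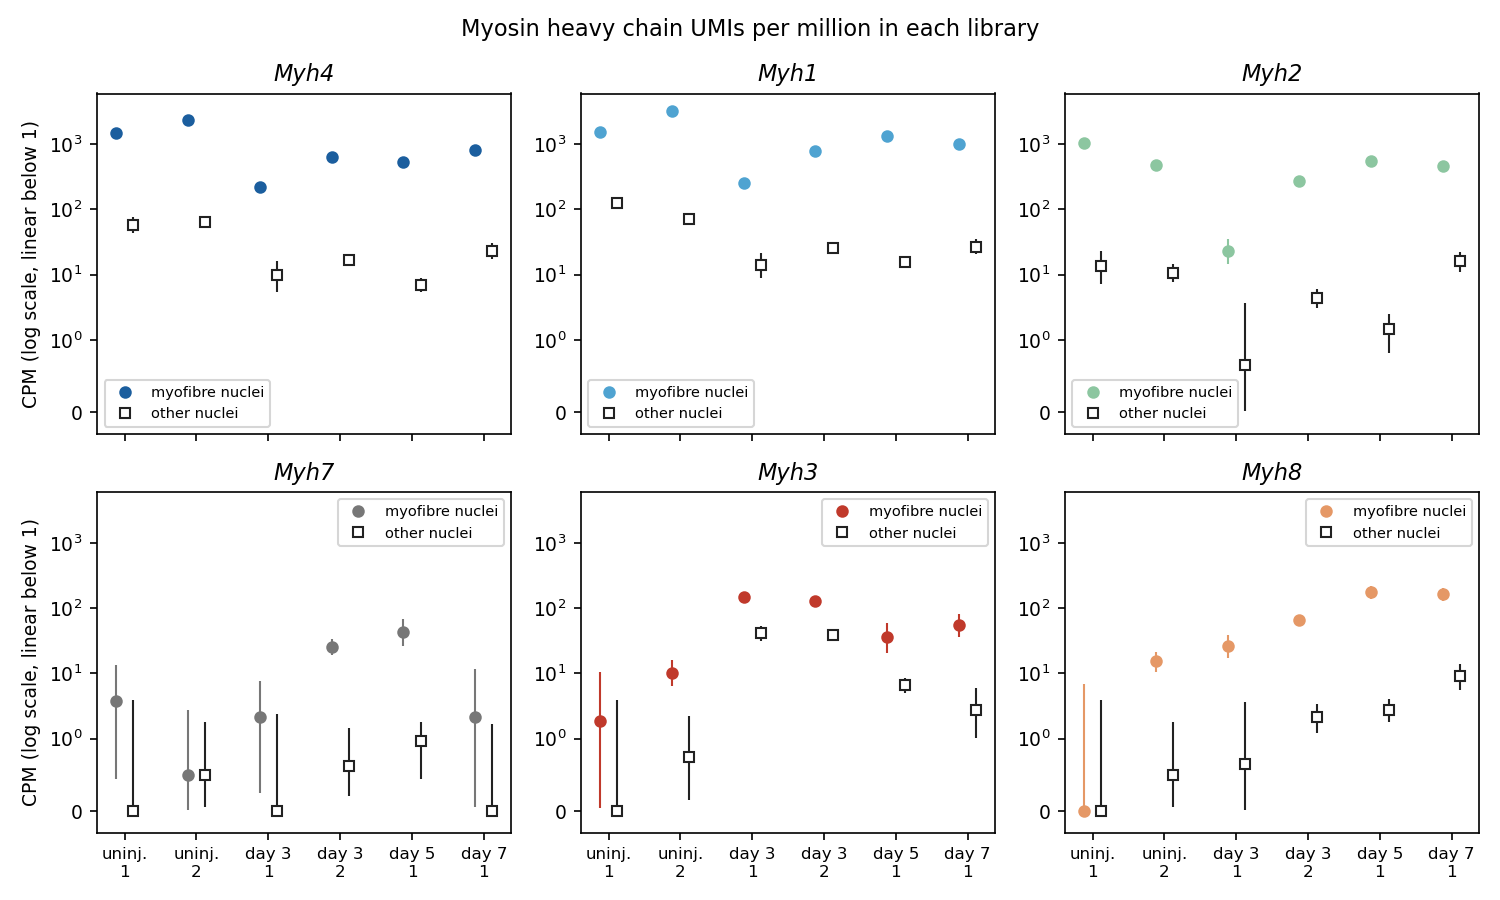
CPM of each gene (vertical axis, log scale, linear below 1) in each library (horizontal axis), in myofibre nuclei (filled circles) and other nuclei (open squares), with exact Poisson 95% intervals. In myofibre nuclei Myh4, Myh1 and Myh2 were lower and Myh3 and Myh8 higher in both day 3 libraries than in both uninjured libraries.

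Other fast sarcomere genes had lower values on day 3 as well, none of them past the threshold. Of the 10 on the list, 10 were tested and 0 passed in either direction by edgeR, 8 had an unadjusted p under 0.05, and 4 were called lower by DESeq2. Their median log2 fold change was -1.37, beside 0.00 over all genes tested. Pvalb, the calcium buffer parvalbumin of fast fibres, had a log2 fold change of -2.60 (SE 0.66) with an adjusted p of 0.113. Actn3, the alpha-actinin of fast fibres, had -1.37 (SE 0.42) with 0.169, and Mybpc2, fast myosin binding protein C, -1.10 (SE 0.33) with 0.167. The 6 muscle genes of the limit had a median of -0.80 and 0 calls by edgeR (1 at an unadjusted p under 0.05, 1 called lower by DESeq2), and since they chose the nuclei their values are a description.

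The proportions among the 3 fast genes were compared next, as shares with no test between groups. Myh4, Myh1 and Myh2 took 36.8%, 38.0% and 25.2% of their joint UMIs in uninjured replicate 1 and 39.3%, 52.9% and 7.87% in uninjured replicate 2. At day 3 they took 44.5%, 50.8% and 4.64% in replicate 1 and 37.5%, 46.4% and 16.2% in replicate 2. The share of Myh2 thus spanned 7.87% to 25.2% between the uninjured libraries alone, and the day 3 shares fell on both sides of replicate 2. At day 5 Myh4 held 22.4% of the fast UMIs (exact binomial 95% interval 19.9% to 24.99%), the lowest of the 6 libraries, and Myh1 54.7%. At day 7 the 3 shares were 36.0%, 43.9% and 20.1%. Per kilobase of gene span, Myh4 and Myh1 were at 67.0 and 63.2 CPM in uninjured replicate 1 and at 105 and 129.8 CPM in replicate 2, against 38.8 and 17.9 CPM for Myh2. Myh2 was the lowest of the 3 per kilobase in each of the 6 libraries, and Myh1 stood above Myh4 in every library but uninjured replicate 1.

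Myh7, the slow gene, was nearly absent. It had 2 and 1 UMIs in the uninjured myofibre nuclei, 2 and 51 on day 3, 19 on day 5 and 1 on day 7, or 3.70, 0.491, 2.11, 25.3, 43.0 and 2.12 CPM. The 51 UMIs of day 3 replicate 2 came from 1 nucleus, and the 19 of day 5 from 2 nuclei. Myh7 did not pass the filter on low counts. Fitted without the filter it had a log2 fold change of 3.19 (SE 1.00, adjusted p = 0.0343 by edgeR), and with DESeq2 2.86 (SE 1.56, adjusted p = 0.510), and the 51 UMIs of that 1 nucleus entered both fits. Of the 9 genes of the slow sarcomere list 7 were tested and 1 rose, Atp2a2, the slow calcium pump of the sarcoplasmic reticulum. Atp2a2 was at 22.3 and 17.2 CPM in the uninjured and 69.0 and 139 CPM in the day 3 libraries (in the test, CPM is taken over the genes that all matrices list), with a log2 fold change of 2.35 (SE 0.40) and an adjusted p of 0.0450 by edgeR. Tnnt1, slow troponin T, had 3.44 (SE 0.60) with an adjusted p of 0.0502, and Tnnc1, slow troponin C, 3.86 (SE 0.77) with 0.0665.

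The 2 developmental genes had higher values on day 3 than before fracture. Myh3 was at 1.85 and 10.3 CPM in uninjured myofibre nuclei, at 146 and 128 CPM on day 3, at 36.2 CPM on day 5 and at 55.2 CPM on day 7. Both day 3 libraries stood above all others, and the single libraries of days 5 and 7, with Poisson intervals of 20.7 to 58.8 and 36.0 to 80.9 CPM, overlapped each other. Myh3 rose on day 3, with a log2 fold change of 4.15 (SE 0.56) and an adjusted p of 0.0292 by edgeR, where 0.77% of all genes passed as higher. At 1.85 CPM in uninjured replicate 1, Myh3 could not pass the filter on low counts without a day 3 library. With 1 library left out its log2 fold change ran from 3.73 to 6.09, and the call was lost without day 3 replicate 1. At the 5% limit Myh3 was not tested, since the day 3 nuclei there held only 1 and 2 of its UMIs. The log2 fold change was 6.09 without uninjured replicate 2. In uninjured replicate 2, 20 of the 21 Myh3 UMIs lay in 2 nuclei, and on day 3 it was found in 21 of 235 and 20 of 239 myofibre nuclei.

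Myh8, the perinatal gene, had 0 UMIs in uninjured replicate 1, which allows up to 5.56 CPM, and was at 15.2 CPM in uninjured replicate 2. It too could pass the filter on low counts only with a day 3 library. It was at 26.4 and 64.9 CPM on day 3, 177 CPM on day 5 and 163 CPM on day 7. The day 5 and day 7 intervals were 139.6 to 220.4 and 129 to 204 CPM. The day 5 level rested on 1 nucleus, which held 69 of the 78 Myh8 UMIs, while the other nuclei of that library held 9. On day 7 the 77 UMIs were spread over 19 nuclei, with at most 11 in any of them. In day 3 replicate 2, 1 nucleus held 75 of the 131 Myh8 UMIs and 1 held 84 of the 259 Myh3 UMIs. The log2 fold change on day 3 was 2.14 (SE 0.83) with an adjusted p of 0.265, which missed the threshold, and over the settings the adjusted p ran from 0.00273 to 0.629. With 1 library left out the fitted log2 fold change ran from 1.51 to 8.76, the latter without uninjured replicate 2 (adjusted p = 0.0265), when the uninjured library that remained was at 0, so it is no measure of size. Of the 2 developmental genes, Myh3 had the higher level in both day 3 libraries and Myh8 on day 7. On day 5 Myh8 was the higher with its nucleus of 69 UMIs, and without it the 9 Myh8 UMIs were fewer than the 16 of Myh3. The order of all UMIs was the same per kilobase, at 6.07 and 5.35 CPM for Myh3 against 0.837 and 2.06 for Myh8 on day 3, 1.51 against 5.60 on day 5, and 2.30 against 5.19 on day 7.

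Genes of forming fibres were read beside them. Of the 10 listed, 8 were tested in myofibre nuclei and 1 rose: Chrna1, the alpha subunit of the acetylcholine receptor, at 0 and 2.95 CPM in the uninjured and 31.9 and 81.5 CPM in the day 3 libraries, with an adjusted p of 0.0422. Chrna1 could pass the filter on low counts only through the day 3 libraries. Ncam1, the neural cell adhesion molecule of denervated and regenerating fibres, had 3.39 (SE 0.59) with an adjusted p of 0.0511. Myog, the myogenin transcription factor, had 3.84 (SE 0.71), and Chrng, the embryonic gamma subunit of the receptor, 3.30 (SE 0.61), both with an adjusted p of 0.0559 by edgeR. In uninjured myofibre nuclei without a Myh3 UMI, Myog was at 0 and 0.997 CPM and Chrng at 0 and 0.498 CPM. Like Chrna1, both could pass the filter on low counts only through the day 3 libraries. Of the satellite cell list only 1 of 5 genes was tested and it was not called by edgeR or DESeq2, nor at an unadjusted p under 0.05 (log2 fold change -0.43). Of 6 genes found at nerve and tendon junctions 3 were tested and 1 rose, Ankrd1, a stress-responsive ankyrin repeat protein, at 33.4 and 13.3 CPM against 419 and 595 CPM, with a log2 fold change of 4.50 (SE 0.50) and an adjusted p of 0.0222.

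As shares of all myosin heavy chain UMIs, the 3 fast genes together held 99.9% and 99.6% in uninjured myofibre nuclei, 74.2% and 88.4% on day 3, 90.4% on day 5 and 91.3% on day 7. Both uninjured libraries were above every library after fracture. Myh3 held 21.6% and 6.79% on day 3, and Myh8 6.63% and 6.47% at days 5 and 7. In nuclei with 5% or more of their UMIs in the muscle genes, the day 3 share of the fast genes was only 0.944 percentage points below the uninjured one, instead of 18.4. Of the 138 and 259 Myh3 UMIs of day 3, 83 and 165 were in nuclei between 2% and 3%, and 1 and 2 in nuclei at 5% or more. Those bands held 118 and 102, and 24 and 17, of the day 3 myofibre nuclei. Myh3 was at 162 and 198 CPM between 2% and 3%, 145 and 87.0 CPM between 3% and 5%, and 16.1 and 15.7 CPM at 5% or more. For comparison, the 2 to 3% band held 111 and 334 Myh4 UMIs, of 211 and 1265.

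**Figure D3:**
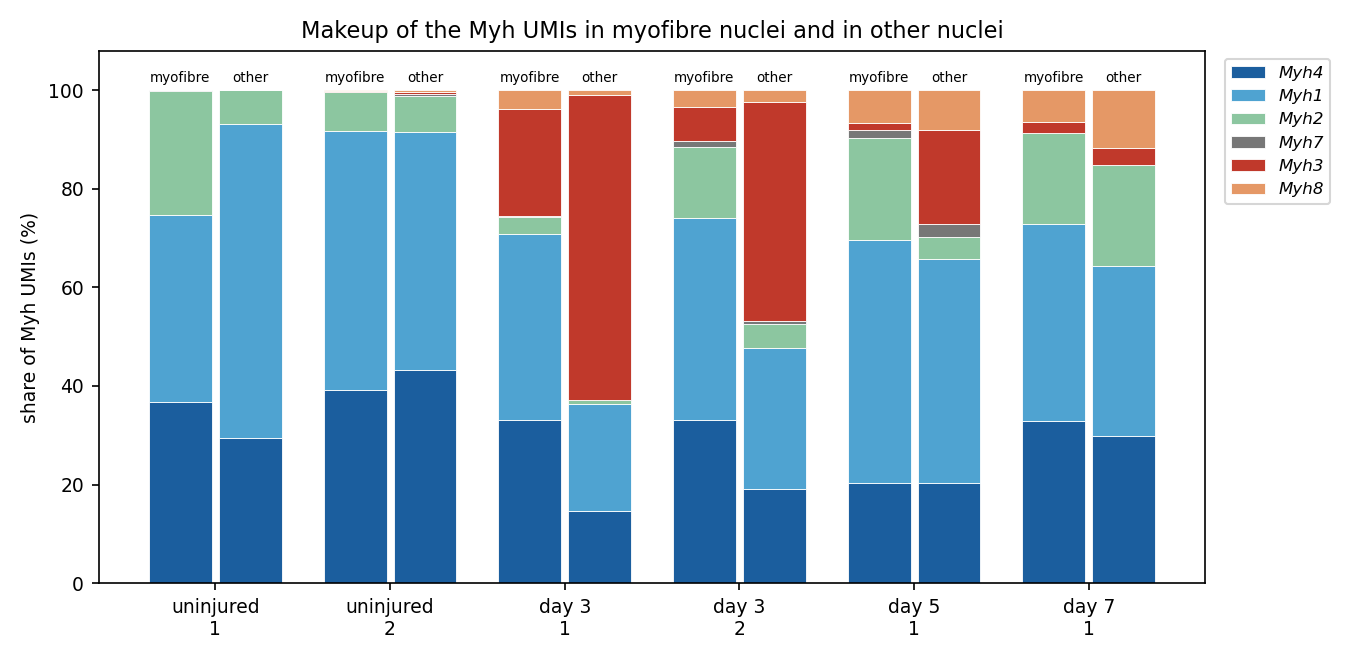
Share of each gene in the UMIs of the 6 genes (vertical axis, percent) in myofibre nuclei (left bar) and other nuclei (right bar) of each library. Myh3 (red) held 21.6% and 6.79% of the myofibre and 61.8% and 44.4% of the other nuclei's UMIs on day 3.

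Most single nuclei with at least 5 UMIs of the 6 genes were led by 1 isoform. With no thinning, 38.5% and 50.6% of uninjured myofibre nuclei still held UMIs of 2 or more, and 9.36% and 22.6% on day 3. Of the 1214 myofibre nuclei, 629 had at least 5 UMIs of the 6 genes, and in 527 of these a single gene held at least 80%. Myh4 led in 238 (37.8%), Myh1 in 212 (33.7%), Myh2 in 59 (9.38%), Myh3 in 11, Myh8 in 4 and Myh7 in 3, while 102 (16.2%) were mixed. By library, Myh4 led in 27.7% to 45.2% of the nuclei with at least 5 UMIs and Myh1 in 25% to 39.3%. Myh3 led in 5 and 4 nuclei of day 3, 1 of uninjured replicate 2 and 1 of day 7. The mixed share was 14.7% and 11.8% in the uninjured libraries, 22.9% and 16.5% on day 3, 19.2% on day 5 and 24.1% on day 7.

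The mixed nuclei paired some isoforms and hardly any of the others. The 2 leading genes were Myh1 and Myh2 in 38, Myh1 and Myh4 in 37, Myh3 and Myh8 in 9, Myh1 and Myh3 in 6, Myh1 and Myh8 in 6, Myh2 and Myh8 in 3, Myh3 and Myh4 in 2 and Myh2 and Myh4 in 1 nucleus. Thus Myh1 was one of the pair in most of them, and IIA with IIB was the pair seen least. Counting any UMI, 143 of the 201 myofibre nuclei with Myh2 also held Myh1 (71.1%), but 36 held Myh4 (17.9%). Among 453 nuclei with Myh4, 162 held Myh1 (35.8%). Of 61 nuclei with Myh3 and 45 with Myh8, 20 held both. Myh1 and Myh2 also share transcript windows near their 3′ ends, as given above, and the part of those windows in these nuclei was not tested. Thinned to 500 UMIs, 14.7% and 14.9% of uninjured myofibre nuclei held at least 2 isoforms, against 1.70% and 4.60% on day 3, 5.93% on day 5 and 7.83% on day 7. These shares also count the nuclei with none of the 6 genes, which were more after fracture. Among nuclei with a UMI of them at that depth, 23 of 128 and 37 of 229 held at least 2 before fracture. It was 4 of 58 and 11 of 107 on day 3, 7 of 58 on day 5 and 17 of 113 on day 7.

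**Figure D4:**
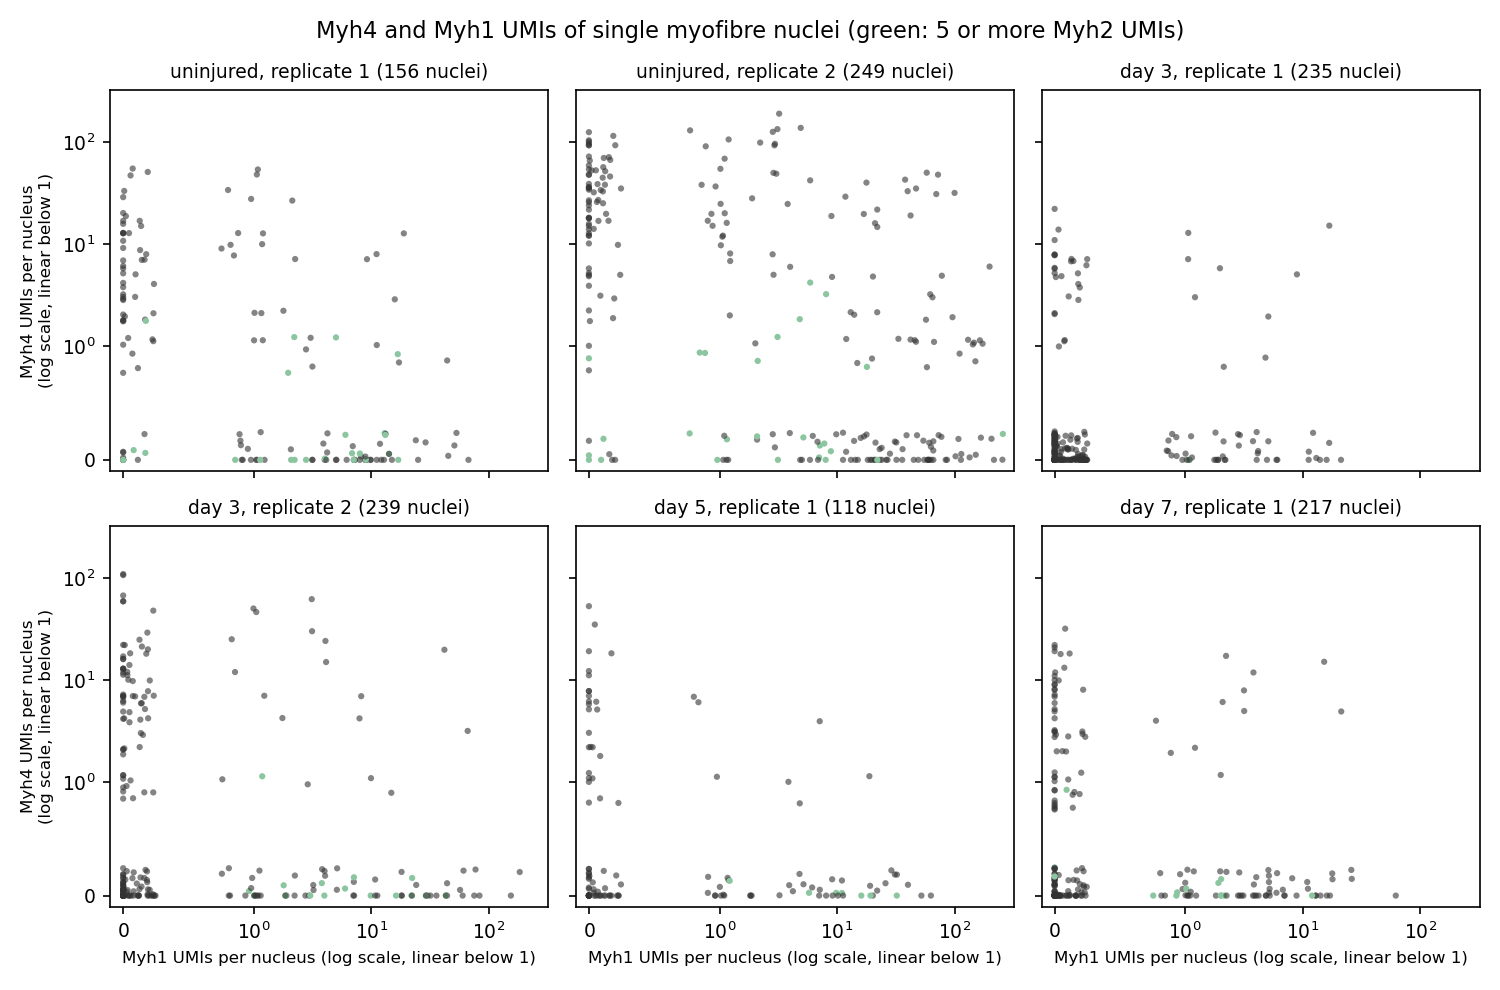
Myh4 (vertical axis) and Myh1 UMIs (horizontal axis) of every myofibre nucleus by library, log scale, linear below 1, with a small random shift so that equal counts can be seen. Green points have 5 or more Myh2 UMIs. Most nuclei with many UMIs of one gene lie along its axis, and nuclei near the origin are many on day 3, where 138 of 235 and 76 of 239 nuclei held none of the 6 genes.

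The nuclei led by each gene differed in the contractile genes around it. These values come from nuclei grouped by their own counts and summed over libraries, so they are given without a test. Mybpc2 was at 993 CPM in Myh4 nuclei, 531 in Myh1 nuclei and 31.2 in Myh2 nuclei. Pvalb was at 549, 303 and 56.1 CPM in the same order and Actn3 at 611, 348 and 87.3 CPM. All 3 thus declined from IIB through IIX to IIA nuclei. Mybpc1, slow myosin binding protein C, went the other way at 3109, 6404 and 7579.9 CPM. In each of the 6 libraries Mybpc2, Pvalb, Actn3 and Ckm, muscle creatine kinase, were higher and Mybpc1 was lower in Myh4 than in Myh1 nuclei. In each of the 4 libraries with at least 5 Myh2 nuclei, Mybpc2, Pvalb and Actn3 were lower and Mybpc1 was higher in those than in Myh1 nuclei. The rest of the fast list followed less closely. In Myh4 against Myh1 nuclei, Tnnt3, Tnni2 and Atp2a1 were higher in 5 of 6 libraries. Mylpf was lower in 5 of 6, Tnnc2 and Myl1 in 4 of 6 and Casq1 in 3 of 6. In Myh2 against Myh1 nuclei, Tnnc2 was higher in 4 of 4 libraries and Atp2a1 in 2 of 4. Tnnt3 was lower in 4 of 4, and Tnni2, Mylpf, Myl1 and Casq1 in 3 of 4. Of the slow genes, Tnnt1 was at 1.87, 7.87 and 90.5 CPM in Myh4, Myh1 and Myh2 nuclei and Atp2a2 at 18.7, 24.9 and 156 CPM. Atp2a2 was higher in Myh2 than in Myh1 nuclei in 4 of those 4 libraries and Tnnt1 in 3 of 4. Myl2 was also higher in 3 of 4, while Tpm3 was lower in 4 of 4. The whole slow list was higher in Myh2 nuclei of uninjured replicate 2 (203 against 41.7 CPM), day 3 replicate 2 (772 against 108.5 CPM) and day 7 (588 against 272 CPM), but lower in uninjured replicate 1 (147 against 225 CPM).

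The 11 nuclei led by Myh3 carried a further set. Ncam1 was at 7651 CPM in them, against 86.2 in Myh4, 185 in Myh1 and 505 in Myh2 nuclei. Myl4, the embryonic myosin light chain, was at 629 CPM, Tnnt2, cardiac and embryonic troponin T, at 303, Chrng at 206 and Myog at 184 CPM, each at 21.0 CPM or less in the nuclei of the 3 adult genes. They also held slow genes, with Atp2a2 at 542, Casq2, cardiac and slow calsequestrin, at 455 and Tnnt1 at 228 CPM. Pvalb had 0 UMIs in them. Ncam1 alone makes up most of the summed forming fibre list, so that sum follows Ncam1.

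**Figure D5:**
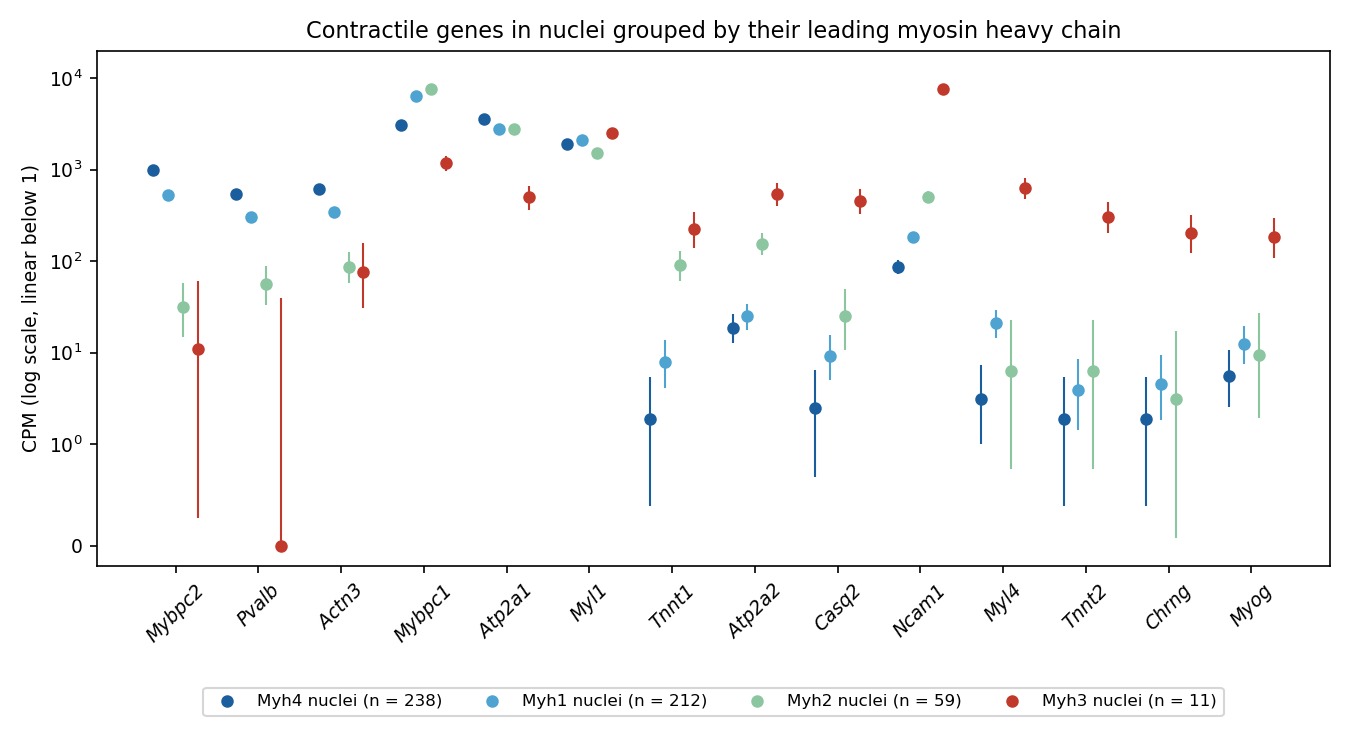
CPM (vertical axis, log scale, linear below 1) of contractile and forming-fibre genes (horizontal axis) in myofibre nuclei led by Myh4, Myh1, Myh2 or Myh3, summed over libraries, with exact Poisson 95% intervals. Mybpc2, Pvalb and Actn3 declined from Myh4 to Myh2 nuclei, and Ncam1, Myl4, Tnnt2, Chrng and Myog were highest in the 11 Myh3 nuclei.

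Across single myofibre nuclei, the genes most like each member were named by the mean over libraries of Pearson's r of ln(1 + UMIs per 10000), among 2466 genes. The nuclei of a library share its depth and base composition, and sparse counts hold r low, so these are descriptions. For Myh4 they were Mybpc2 (r = 0.430), Mylk4, a muscle myosin light chain kinase (0.417), Phka1 (0.304), Pgm2 (0.301) and Pygm (0.297), the last 3 of them enzymes of glycogen and glucose phosphate turnover. For Myh1 they were Agbl1 (0.340), Mybpc1 (0.340), Actn2 (0.243), Ldb3 (0.234) and Ank2 (0.216). For Myh2 they were Lmcd1 (0.323), Actn2 (0.309), Cd36, a fatty acid transporter (0.296), Agbl1 (0.287) and Qk (0.279). Myh4 and Myh1 had a negative r with each other (-0.344, from -0.672 to -0.0148 over the 6 libraries). For Myh3 they were Dlg2 (0.415), Sntb1, the beta-1 syntrophin (0.340), 5430431A17Rik (0.299), Grb10 (0.280) and Inpp4b (0.270). Over the 5 libraries with Myh8 UMIs, those of Myh8 were Grb10 (0.321), Dlg2 (0.320), Sntb1 (0.315), Utrn, utrophin (0.293), and Tbcd (0.273). Myh3 and Myh8 thus shared Dlg2, Sntb1 and Grb10 among their first 5. For Myh3 the r of Sntb1 ran from -0.0281 to 0.704 over the libraries and that of Grb10 from -0.0315 to 0.507. That of Dlg2 ran from 0.119 to 0.558. Myh3 was found in only 1 and 3 myofibre nuclei of the uninjured libraries and in 4 of day 5.

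In the other nuclei the 6 genes were measured at a low level in every library, at a sum of 197 and 148 CPM before fracture, 66.2 and 88.3 CPM on day 3, 34.7 CPM on day 5 and 78.2 CPM on day 7. Both uninjured libraries were above all later ones, at 173 ± 34.7 CPM against 77.3 ± 15.6 CPM on day 3 (SD, n = 2 each). Myh4 was at 58.0 and 63.9 CPM, then 9.74 and 16.8 CPM on day 3, 7.04 CPM on day 5 and 23.3 CPM on day 7. Myh1 was at 125 and 71.7 CPM, then 14.3 and 25.2 CPM, 15.8 CPM and 26.98 CPM. For neither gene did the uninjured and day 3 libraries overlap. Myh2 was at 13.7 and 10.7 CPM, then 0.649 and 4.35 CPM, 1.49 CPM and 16.0 CPM, so day 7 was its highest library. Myh7 had 0 to 9 UMIs per library, and Myh8 was at 0, 0.499, 0.649, 2.11, 2.78 and 9.15 CPM in the order of the libraries, with its highest level also on day 7.

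Myh4 fell in the other nuclei on day 3, with a log2 fold change of -2.16 (SE 0.37) and an adjusted p of 0.0358 by edgeR, where 758 of 12956 genes passed (5.85%, 4.41% as lower) and 50.4% had groups that did not overlap (23.8% higher and 26.6% lower). Myh1 fell as well, with a log2 fold change of -2.29 (SE 0.44) with an adjusted p of 0.0453. Myh2 had -2.06 (SE 0.74) with an adjusted p of 0.165, and -3.86 without day 3 replicate 2. The call of Myh1 was lost in 8 of 15 alternative settings (adjusted p from 2.63e-05 to 0.241), among them each of the 2 that left out an uninjured library. That of Myh4 ranged from 0.000557 to 0.188 and was lost without uninjured replicate 1 (0.188), without uninjured replicate 2 (0.161) and in 2 further settings. The summed muscle genes of the limit did not move with them, at 595 and 702 CPM in the uninjured other nuclei against 5752 and 1772 CPM on day 3, when 122 and 78 of the other nuclei lay between 1% and 2%. Per 100 UMIs of those genes the other nuclei held 33.2 and 21.1 myosin heavy chain UMIs before fracture and 1.15 and 4.98 on day 3.

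Myh8 did not pass the filter on low counts in the other nuclei, where its low values were also higher on day 3, as given above. Among the members tested there, only Myh3 was higher on day 3. It had 0 and 3 UMIs in the uninjured libraries and 63 and 315 on day 3, or 0, 0.749, 40.9 and 39.2 CPM, then 6.62 CPM on day 5 and 2.74 CPM on day 7. Pooled over libraries, the day 3 level was 65.1 times the uninjured one (exact 95% counting interval 22.1 to 317). Myh3 rose with a fitted log2 fold change of 6.13 (SE 0.73) and an adjusted p of 0.0257 by edgeR, where 1.44% of genes passed as higher. Myh3 could pass the filter on low counts only through the day 3 libraries, where it was high. Its adjusted p ran from 3.68e-12 to 0.112 over the settings, and the call was lost without uninjured replicate 1 (0.112), without uninjured replicate 2 (0.0853, with a fitted log2 fold change of 10.27 against a library at 0) and with the limit at 5% (0.0603).

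Forming-fibre genes rose with it in these nuclei: of 10 listed 9 were tested and 7 rose, Chrng, Myog, Tnnt2, Mymk, Chrna1, Myod1 and Ncam1 (1.44% of all genes passed as higher). Of these, all except Ncam1 could pass the filter on low counts only through the day 3 libraries, so the count of 7 is a description. Myod1, the myogenic determination factor, was at 2.11 and 0.503 CPM before and 15.7 and 18.5 CPM on day 3 (adjusted p = 0.0453). Mymk, the fusion protein myomaker, was at 0 and 0.251 CPM before and 7.85 and 6.12 CPM on day 3 (adjusted p = 0.0499). Chrng was at 0 CPM in both uninjured libraries and at 15.7 and 19.1 CPM on day 3 (adjusted p = 0.0298, edgeR). Of the slow sarcomere list 6 were tested and 2 rose, Tnnt1 by a log2 fold change of 3.98 (adjusted p = 0.0476) and Tnnc1 by 4.11 (0.0335). Of the fast list 10 were tested and 0 were called by edgeR (2 at an unadjusted p under 0.05, 1 lower by DESeq2), with a median of 0.03. Of the muscle genes of the limit Neb rose and Ckm fell, of the junction list Ankrd1 rose (1 of 4 tested), and of the satellite cell list 4 were tested and 0 called by edgeR or DESeq2 (3 at an unadjusted p under 0.05).

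Whether the myosin RNA of the other nuclei had the same makeup as that of the myofibre nuclei was tested for each gene over the 6 libraries, with an exact two-sided sign-flip permutation test whose smallest p is 0.0312. The share of Myh3 was 16.2 percentage points higher in the other nuclei, in 5 of 6 libraries (exact permutation p = 0.0625). At day 3 it was 61.8% and 44.4% there against 21.6% and 6.79% in myofibre nuclei, and on day 5 19.1% against 1.36%. The share of Myh2 was 7.48 points lower, in 5 of 6 libraries (exact permutation p = 0.0938). By the same exact test the differences were -6.45 points for Myh4 (p = 0.188), -2.77 for Myh1 (p = 0.688), 0.452 for Myh8 (p = 0.688) and 0.0606 for Myh7 (p = 0.844). None of the 6 unadjusted exact permutation p-values was under 0.05.

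In uninjured replicate 1 the makeup also differed between kinds of other nuclei. Its 173 nuclei with endothelial markers (median depth 1487 UMIs) held 63 fast UMIs, of which 57 were Myh1 and 3 Myh4, so Myh4 took 4.76% where it took 36.8% in the myofibre nuclei of that library. Its 67 nuclei with stromal and skeletal markers held 17 Myh1 and 2 Myh4 UMIs. In uninjured replicate 2 Myh4 took 38.2% of the 136 fast UMIs of 240 endothelial-marker nuclei, near its 39.3% in myofibre nuclei. The 2 uninjured libraries thus differed in this respect.

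How far the UMIs of the other nuclei lay in few nuclei differed between libraries. Nuclei with 5 or more UMIs of the 3 fast genes held 16.0% and 18.1% of the fast UMIs in the uninjured libraries, 0% and 47.5% on day 3, 56.6% on day 5 and 34.5% on day 7. For Myh3 and Myh8 together, 7 and 15 nuclei with 5 or more UMIs held 75% and 62.0% of them on day 3, and 5 nuclei held 70.5% on day 5, while on day 7 1 nucleus held 26.9%. All 7, 15 and 5 of these nuclei also had UMIs of the forming-fibre list, as did 43.3%, 56.4% and 46.5% of the other nuclei without Myh3. By markers, 1, 14 and 5 of these nuclei fell in a non-muscle group. Muscle genes were not among the lists compared, so this grouping could not have named any of these nuclei as muscle. The forming-fibre list was at 5901 and 8884 CPM in them on day 3, against 737 and 448 CPM in the remaining other nuclei. Their median muscle gene share was 1.58% and 1.25%, just under the 2% limit.

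Across the limit, 28 nuclei of day 3 replicate 1 and 35 of replicate 2 had 2 or more Myh3 UMIs, of which 16 and 12 were myofibre nuclei by the rule. Myog was at 135 and 193 CPM in them, Chrng at 404 and 285 CPM, Tnnt2 at 242 and 385 CPM and Ncam1 at 5601 and 5872 CPM. In other nuclei without Myh3, Myog was at 8.06 and 19.5 CPM. Adult fast myosins were found in 10 of the 28 and 14 of the 35. The quality limits bore on this gene more than on the others: of 3344 Myh3 UMIs in all barcodes of day 3 replicate 2, 2770 (82.8%) were in barcodes that failed, 2259 of them in barcodes with over 5000 genes, while 38.8% of its Myh4 UMIs were lost. In day 3 replicate 1, 1 of 202 was lost. With no upper limit on genes Myh3 rose in the same direction, by a log2 fold change of 4.60 in myofibre and 6.66 in other nuclei.

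Of the myosin heavy chains outside the 6, Myh9, non-muscle myosin IIA, had 723 UMIs in myofibre and 9481 in other nuclei, Myh10, non-muscle myosin IIB, 206 and 857, and Myh14, non-muscle myosin IIC, 335 and 104. Myh11, the smooth muscle chain, had 17 and 2827, and Myh6, Myh13 and Myh15 had 6 and 15, 3 and 10, and 0 and 6. In myofibre nuclei 3 of these 7 were tested and 0 passed (1 at an unadjusted p under 0.05, 1 higher by DESeq2), with Myh9 at a log2 fold change of 2.30 (SE 0.45, adjusted p = 0.0612 by edgeR). In the other nuclei 4 were tested and Myh11 fell, with a log2 fold change of -5.94 (SE 0.68, adjusted p = 0.0257). Myhas, the antisense transcript that overlaps Myh1 (chr11:67211256-67237573, reverse strand), was chosen after its values were seen. It was at 309.96 and 307 CPM in uninjured and 21.2 and 58.1 CPM in day 3 myofibre nuclei, and fell, with a log2 fold change of -3.04 (SE 0.41, adjusted p = 0.0292), the direction in which 0.429% of genes passed.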

How the data were processed

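The authors prepared Sytox-sorted nuclei with the 10x 3′ v3.1 kit and deposited 1 filtered Cell Ranger matrix of UMI counts per library, mapped to mm10 with intronic reads. These are raw counts with no normalization by the authors, and the replicate numbers only name the libraries in accession order. Barcodes were kept where 200 to 5000 genes were found and mitochondrial and ribosomal transcripts held below 2% and below 1.5% of UMIs, and CPM is per 1000000 UMIs of the nuclei summed. The members and the gene lists were chosen with earlier results of these data known. By rule, the text names the 6 members, listed genes and the 5 genes most like each member. A nucleus under the limit was grouped by the non-muscle marker list with most UMIs, at least 3 from at least 2 genes. Muscle genes were not among these lists.

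UMIs were summed per library and kind of nucleus, and day 3 was tested against uninjured in edgeR 4.0.16 (R 4.3.3, filterByExpr, TMM, quasi-likelihood, Benjamini-Hochberg over all genes tested, threshold 0.05) and alternatively in DESeq2 1.42.0. The fit was tested on simulated data. Scanpy 1.11.5 ran Scrublet (expected rate 6%). Alternatives were myofibre limits of 1% and 5%, Mybpc1 left out of the limit, other nuclei under 0.5%, all barcodes, doublets removed, no filter on low counts, no TMM, other thinning depths and each library left out. Removing the upper gene limit, keeping only other nuclei of a marker group, and the bands of muscle gene share were chosen after seeing the data. Depth limits single nuclei most: 585 of 1214 myofibre nuclei had under 5 UMIs of the 6 genes.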

Additional observations from a re-analysis of the deposited data

How the results depend on the processing

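Of 349 alternative values, 279 kept their direction, their side of the threshold or their size, and 10 reversed. In myofibre nuclei 109 genes passed, and 256 did with the limit at 1%, 0 at 5% (edgeR, 3657 tested, 421 at an unadjusted p under 0.05), 405 with DESeq2 (51.6% higher, against 64.2%), 920 with no filter on low counts, 57 without TMM (77.2% higher) and 0 to 821 with 1 library left out, the 0 being without day 3 replicate 1 (908 unadjusted). In other nuclei 758 passed, and 1217 did in nuclei under 0.5%, 1604 with DESeq2 (39.5% higher, against 24.7%), 2533 with no filter and 0 to 1402 with 1 library left out, the 0 being without either uninjured library (1939 and 1980 unadjusted). No log2 fold change of a member reversed. The day 3 minus uninjured share of nuclei that are myofibre nuclei was -0.0929 percentage points, 9.63 at the 1% and -12.7 at the 5% limit, and -8.75 to 8.56 with 1 library left out. The myosin CPM of other nuclei differed by -95.4, by -419 at the 5% limit, by -126 in nuclei under 0.5% and by -120 to -70.8 with 1 library left out; in myofibre nuclei leaving out 1 gave -4764 to -2803. The share of the 3 fast genes differed by -18.4 points, by -0.944 at the 5% limit and by -25.5 to -11.3 with 1 library left out. The share without myosin UMIs differed by 42.2 to 62.3 points with 1 left out. Nuclei with 2 or more isoforms averaged 8.28%, 14.0% thinned to 1000 UMIs, 27.2% unthinned and 6.96% to 9.59% with 1 left out. In the makeup of other against myofibre nuclei, Myh4 reversed to 3.04 points at the 5% limit, Myh1 to 3.04 in nuclei under 0.5% and 0.454 in marker groups, Myh7 to -0.0393 at 1% and -0.208 under 0.5%, and Myh8 to -0.345 at 1%, -0.155 without Mybpc1 and -0.827 under 0.5%, while Myh2 passed in marker groups (-8.30). At the 5% limit the day 3 minus uninjured shares of Myh7 and Myh8 reversed to -0.0644 and -0.0804 points. The 5% limit leaves 24 and 17 day 3 nuclei; the cause of the other shifts was not tested. Leaving out a library leaves 1 in its group, assumed to vary like the other group. No paired analysis was possible because the labels give no replicate numbers.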
